A study of Mus musculus with 40 samples.

Results

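Pyridoxal kinase (Pdxk) and pyridoxal phosphatase (Pdxp), the enzymes that add and remove the phosphate of vitamin B6, were followed in renal cortex RNA from 40 male mice. They were selected by symbol from the gene table and are 2 of its 55401 rows. Their names came with earlier results of these data in view, in which the Akita against wild-type (WT) difference on the ethanol vehicle drew notice to Pdxk, so that contrast is given below for both genes as a description, without a test. The mice were C57BL/6J animals heterozygous for Ins2-Akita, a dominant misfolding mutation of Ins2 that damages the insulin-producing beta cells and makes the mice diabetic, and their WT littermates. Each genotype had 4 groups of 5 mice, namely the ethanol vehicle (10% ethanol in water), MitoGamide in that vehicle (10 mg/kg, by daily oral gavage), the water vehicle, and MitoQ. The sources used here give neither the dose nor the vehicle of MitoQ. It was set against the water vehicle here, and both groups are called the water side below. MitoGamide is a mitochondria-targeted scavenger of reactive dicarbonyls such as methylglyoxal, and MitoQ is a mitochondria-targeted ubiquinone antioxidant. Treatment ran from 6 to 22 weeks of age as the protocol describes it for the ethanol and MitoGamide groups. Every cell carries the Akita mutation, but Ins2 is used by the beta cells, so its RNA in the cortex could not serve as a check of the genotype labels. Each library came from 1 animal, without pooling.

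Vitamin B6 is taken up as pyridoxine, pyridoxal and pyridoxamine. Pyridoxal kinase phosphorylates all 3 forms and so traps them in the cell. Pyridoxal 5'-phosphate (PLP), the active form, is the cofactor of aminotransferases, decarboxylases and many other enzymes of amino acid metabolism. Pyridoxal phosphatase removes the phosphate again and is also known as chronophin, a phosphatase of the actin-severing protein cofilin. In liver, kidney and brain, Pdxk is known as a target of the PAR bZIP transcription factors Dbp, Tef and Hlf, which follow the circadian clock.

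Pdxk (ENSMUSG00000032788.15) lies on chromosome 10 of GRCm38 at chr10:78436744-78464975 on the minus strand. GENCODE gives it 5397 bases of exon and 2 transcripts, of which 1 codes for the protein and the other retains an intron. Pdxp (ENSMUSG00000116165.1) lies at chr15:78913919-78919517 on the plus strand with 2001 bases of exon. A pseudogene, Pdxk-ps on chromosome 17, held 0 to 10 counts per library against 234 to 4957 for Pdxk. Pdxp overlaps the protein-coding model Gm49510, which spans from Sh3bp1 into Pdxp on the same strand and held 0 to 18 counts, as few as Pdxp itself. How the estimate divided reads between Pdxk and Pdxk-ps, or between Gm49510 and Pdxp, cannot be seen from gene totals. The 250 bases before each gene's start are shown because Pdxk and Pdxp differed in level and because known clock and stress motifs can be looked up in them. They were taken from RefSeq on GRCm38.p6, the Pdxk window being chr10:78464949-78465198 read on the minus strand, which ends at a RefSeq start 27 bases inside the GENCODE gene, and the Pdxp window chr15:78913669-78913918 on the plus strand. Capitals mark the E-box CACGTG in Pdxk and the GC box, read as its complement, in Pdxp:

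Pdxk: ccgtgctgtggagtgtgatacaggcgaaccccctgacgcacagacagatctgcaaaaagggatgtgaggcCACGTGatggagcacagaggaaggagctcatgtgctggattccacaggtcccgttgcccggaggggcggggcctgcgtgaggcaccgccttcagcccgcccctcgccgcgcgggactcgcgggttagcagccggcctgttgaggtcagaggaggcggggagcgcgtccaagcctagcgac

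Pdxp: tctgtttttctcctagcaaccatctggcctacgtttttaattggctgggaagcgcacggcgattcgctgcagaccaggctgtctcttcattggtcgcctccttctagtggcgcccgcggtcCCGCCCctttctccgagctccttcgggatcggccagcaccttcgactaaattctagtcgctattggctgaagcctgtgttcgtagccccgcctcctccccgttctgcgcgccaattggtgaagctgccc

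Both windows were rich in G and C (66.4% for Pdxk and 58.8% for Pdxp, against a median of 52.4% over 32841 promoter windows), with 21 and 20 CpG dinucleotides. Motifs were looked up on both strands. The E-box CACGTG, the element that clock and MYC-family factors can bind, occurred 1 time for Pdxk, at -180 to -175 from the RefSeq start, and in 6.02% of all windows. The GC box GGGCGG occurred 2 times for Pdxk and 1 time for Pdxp and in 32.75% of all windows. The letters TTANGTAA (a D-box, the element of the PAR bZIP factors, in 2.06% of windows), TGACGTCA (a cyclic AMP response element, in 1.55%) and TGACNNNGC (an antioxidant response element, in 10.16%) were absent from both windows, which says nothing of elements elsewhere.

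The libraries held 9106654 to 24321424 estimated counts. The share of counts on 3 ribosomal RNA genes (mt-Rnr1, mt-Rnr2 and CT010467.1) was 15.2% to 27.4% in the ethanol vehicle and MitoGamide groups and 10.7% to 63.2% in the water vehicle and MitoQ groups. It exceeded 40% in 3 libraries, namely Akita water vehicle replicate 2 (49.6%), Akita water vehicle replicate 5 (43%) and WT MitoQ replicate 3 (63.2%). Because mt-Rnr1 and mt-Rnr2 are mitochondrial, this share includes mitochondrial content. All mitochondrial genes held 43.1%, 40.7% and 49.2% of counts in those 3 libraries. The liver transcript Alb reached 292 CPM (a library's counts scaled to a common total) in WT water vehicle replicate 1, against at most 31.2 CPM in any other library. All 9 proximal tubule markers were present in these cortex libraries, at a summed 9270 to 19800 CPM. Below, CPM are scaled by TMM over all 40 libraries, a log2 fold change is the edgeR estimate, and a call is a Benjamini-Hochberg adjusted p under 0.05 over all genes tested in that contrast. The p-values measure the spread between individual mice.

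Pdxk was about 2 times as high in Akita as in WT cortex in each of the 4 arms, and it was among the more abundant transcripts, with a higher mean CPM than 95.2% of 17769 genes. Of the 20 Akita libraries, 19 lay above every one of the 20 WT libraries. The exception was Akita MitoQ replicate 2 at 99.5 CPM, just under the highest WT library, WT MitoGamide replicate 2 at 101 CPM. This separation is a description, since it includes the ethanol vehicle libraries of the contrast that brought Pdxk to notice. The share of all genes separated to this degree was not counted, and the shares within each arm are given below. Because this is RNA from whole cortex, more cells of a Pdxk-expressing type and more Pdxk RNA per cell cannot be told apart.

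**Figure D1:**
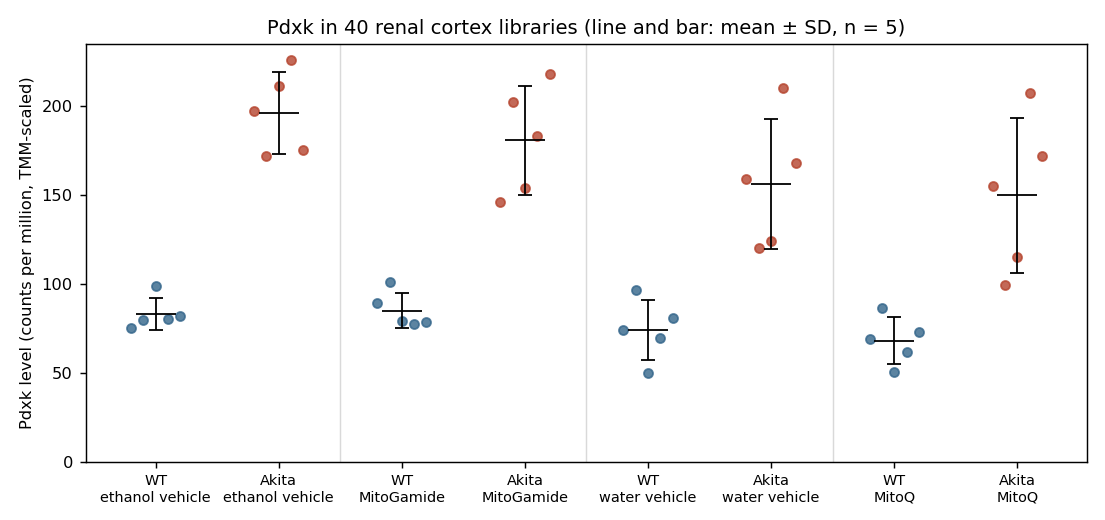
Pdxk level in CPM (vertical axis) for each of 40 libraries in 8 groups of 5, with the group mean and SD as a line and bar (Akita in red, WT in blue). Akita libraries sit between 99.5 and 226 and WT libraries between 49.7 and 101, and the spread within groups is wider on the water side.

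On the ethanol vehicle, Akita libraries had 197, 172, 211, 226 and 175 CPM of Pdxk and WT libraries 75.1, 79.8, 98.6, 80.2 and 81.7 CPM. The groups did not overlap, as for 5.52% of the genes tested in this direction. The means were 196 ± 22.8 and 83.1 ± 9.02 CPM (SD, n = 5 each), a ratio of 2.36, and the log2 fold change was 1.25 with a standard error of 0.09. In this contrast 16.4% of 17747 genes were called and 8.18% were called higher, and nothing is read from the position of Pdxk among them since the contrast brought it to notice.

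With MitoGamide, Akita libraries had 146, 202, 154, 183 and 218 CPM of Pdxk and WT libraries 89, 101, 79.3, 77.2 and 78.5 CPM. All 5 Akita libraries lay above all 5 WT libraries, as the higher group did for 5.4% of the 16674 genes tested. The means were 181 ± 30.8 and 85 ± 10.1 CPM (SD, n = 5 each). Pdxk rose with a log2 fold change of 1.12 (95% confidence interval 0.86 to 1.38, edgeR adjusted p = 0.000271), in a contrast where 14.3% of genes were called and 7.71% were called higher. The call held when any 1 library was left out, but it was lost with the summed receptor genes as a covariate, as given below.

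On the water vehicle, Akita libraries had 159, 120, 124, 210 and 168 CPM of Pdxk and WT libraries 74.1, 96.3, 49.7, 69.6 and 81 CPM. The groups did not overlap, which held for 0.934% of the 18304 genes tested in this direction. The means were 156 ± 37 and 74.1 ± 17 CPM (SD, n = 5 each). The log2 fold change was 1.08 (95% confidence interval 0.61 to 1.54), with an unadjusted p of 0.000274 and an edgeR adjusted p of 0.0497, so that Pdxk rose at the threshold. Here 0.552% of genes were called and 0.186% were called higher. This call was lost in 9 of 10 fits that left out 1 library (adjusted p 0.0514 to 0.155, log2 fold change 0.94 to 1.16), all except the 1 without WT water vehicle replicate 2, and in the fit without the 2 libraries over 40% ribosomal RNA (log2 fold change 1.16, adjusted p = 0.195). It was also lost with RLE normalization (adjusted p = 0.0622), without a filter on low counts (adjusted p = 0.103) and with the replicate number as a block (adjusted p = 0.102). DESeq2, the fit over all 40 libraries and a filter of 10 counts in every library kept it.

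With MitoQ, Akita libraries had 155, 99.5, 115, 207 and 172 CPM of Pdxk and WT libraries 69, 86.5, 50.6, 61.6 and 73 CPM. Again the groups did not overlap, as for 1.39% of the 18143 genes tested in this direction. The means were 150 ± 43.3 and 68.2 ± 13.3 CPM (SD, n = 5 each). Pdxk rose with a log2 fold change of 1.13 (95% confidence interval 0.67 to 1.59, edgeR adjusted p = 0.0383), where 0.557% of genes were called and 0.265% were called higher. Leaving out 1 library lost this call in 6 of 10 fits (Akita MitoQ replicate 1, 4 or 5 or WT MitoQ replicate 1, 4 or 5), with log2 fold changes of 0.99 to 1.16 and adjusted p of 0.0704 to 0.126. Without WT MitoQ replicate 3, the library with the largest ribosomal share, the log2 fold change was 1.04 with an adjusted p of 0.0309. The call was also lost with the replicate number as a block (log2 fold change 1.11, edgeR adjusted p = 0.0908).

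The order of the 8 group means ran from Akita ethanol vehicle (196 CPM) through Akita MitoGamide (181), Akita water vehicle (156) and Akita MitoQ (150) to WT MitoGamide (85), WT ethanol vehicle (83.1), WT water vehicle (74.1) and WT MitoQ (68.2). Each group overlapped its neighbor in this order, and the gap exceeded the larger SD only between Akita MitoQ and WT MitoGamide (65 against 43.3 CPM).

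Neither drug moved Pdxk past the threshold. In Akita mice MitoGamide was compared with the same ethanol vehicle libraries as the WT mice above, so both comparisons share them, and these libraries also belong to the contrast that brought Pdxk to notice. Pdxk with MitoGamide stood at a log2 fold change of -0.11 (95% confidence interval -0.37 to 0.15, edgeR adjusted p = 0.619) in Akita mice, where 1.26% of 17051 genes were called. That share did not hold, as 0 to 802 genes were called when 1 library was left out. In WT mice Pdxk stood at 0.03 (95% confidence interval -0.17 to 0.22, edgeR adjusted p = 0.949). With MitoQ against water it stood at -0.06 (95% confidence interval -0.54 to 0.42) in Akita and -0.12 (95% confidence interval -0.54 to 0.30) in WT mice, with edgeR adjusted p of 0.999 and 1. The Pdxk levels ranked replicates 1 to 5 in the same order on water and with MitoQ, in Akita as in WT mice, and 4 of 5 same-numbered pairs were lower with MitoQ in each genotype, although the labels do not say that a number links the mice. The intervals above take the mice as unpaired. They still include a change of -0.54 with MitoQ and of -0.37 with MitoGamide and do not show that Pdxk was the same. The edgeR test called 0 genes (0%) with MitoGamide in WT mice (unadjusted p under 0.05 in 1841 genes, 74 called by DESeq2), 0 with MitoQ in Akita mice (363 genes, 0 by DESeq2) and 0 with MitoQ in WT mice (575 genes, 2 by DESeq2).

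Against the water vehicle, Pdxk on the ethanol vehicle stood at a log2 fold change of 0.34 (95% confidence interval -0.01 to 0.70, edgeR adjusted p = 0.133) in Akita mice, where 12.7% of 17928 genes were called, a share that did not hold, as 1 to 6496 genes were called when 1 library was left out (6496 without Akita water vehicle replicate 1) and 1 with the receptor gene covariate. In WT mice Pdxk stood at 0.17 (95% confidence interval -0.18 to 0.53, edgeR adjusted p = 0.46), where edgeR called 0 genes (0%, unadjusted p under 0.05 in 4959 genes, 725 called by DESeq2). That count did not hold either, as 0 to 5216 genes were called when 1 library was left out. The ethanol vehicle libraries of both comparisons also belong to the contrast that brought Pdxk to notice, so these values are not independent of it. The vehicle and everything else that differed between the arms cannot be told apart. With the summed olfactory and vomeronasal receptor genes as a covariate, an alternative added after the data were examined, the Akita value was 0.05.

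The genotype difference of Pdxk was itself compared between arms. With MitoGamide it differed by -0.14 on the log2 scale from that on the ethanol vehicle, which is a description without a test since it subtracts the contrast that brought Pdxk to notice. It changed by 0.05 with MitoQ relative to water (95% confidence interval -0.58 to 0.69) and by 0.00 between MitoQ and MitoGamide (95% confidence interval -0.51 to 0.52). The edgeR adjusted p for the last 2 differences were 1 and 0.999. The doses of both drugs cannot be matched, so the last value sets both arms side by side and does not rank the compounds.

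**Figure D2:**
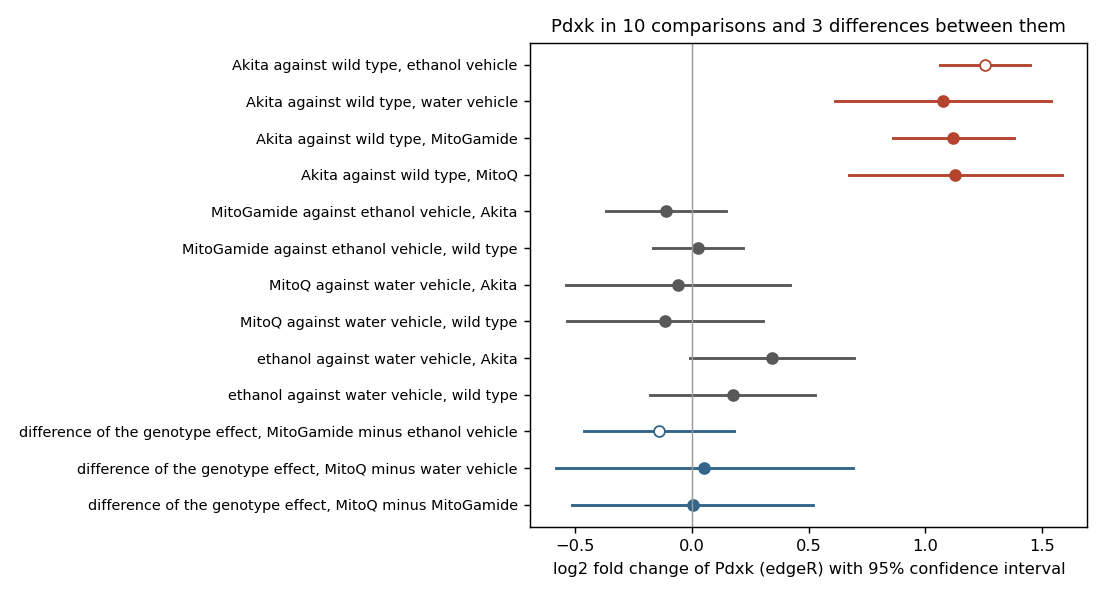
Pdxk log2 fold change (horizontal axis, edgeR) with its 95% confidence interval in 10 comparisons and 3 differences between comparisons. The 4 Akita against WT values lie between 1.08 and 1.25 (open symbols are the ethanol vehicle value and the difference that subtracts it, both given without a test), and the intervals of the drug and vehicle comparisons and of the other differences include 0.

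The summed counts of olfactory and vomeronasal receptor genes, chemosensory receptors of the nose, differed between libraries. In the ethanol vehicle and MitoGamide groups these genes summed to 448.7 to 1468 CPM, and in the water vehicle and MitoQ groups to 808.3 to 2566 CPM. The lowest WT library for Pdxk (WT water vehicle replicate 3, 49.7 CPM) had the largest sum, 2566 CPM, but the highest of that group (WT water vehicle replicate 2, 96.3 CPM) had its second largest, 1751 CPM. Akita water vehicle replicate 3 (124 CPM of Pdxk) had 2016 CPM. Akita MitoQ replicate 4, at 207 CPM of Pdxk, had 1845 CPM. With this sum as a covariate, the Pdxk genotype difference was 1.06 on the water vehicle (edgeR adjusted p = 0.00557), 1.11 with MitoGamide (adjusted p = 0.0600) and 1.12 with MitoQ (adjusted p = 0.0241), so the sizes moved little while the MitoGamide call was lost. In the MitoGamide arm the sum was lower in Akita (448.7 to 801.3 CPM) than in WT libraries (859.4 to 1468 CPM) without overlap.

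**Figure D3:**
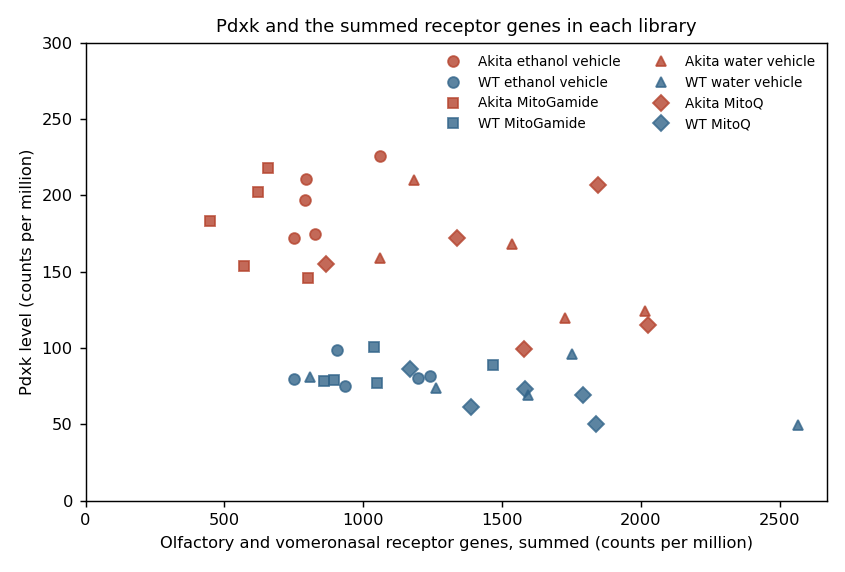
Pdxk level against the summed olfactory and vomeronasal receptor genes, both in CPM, for each of 40 libraries (Akita in red, WT in blue, one symbol per treatment). Sums above 1500 occur on the water side alone, where the 4 lowest red symbols lie (99.5 to 124) beside others at 168 and 207, and the lowest blue symbol (49.7) has the largest sum.

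Cell type markers also differed between genotypes beside Pdxk. The 9 proximal tubule markers summed to 12000 to 15700 CPM in Akita and 16200 to 19800 CPM in WT libraries on the ethanol vehicle, and to 11300 to 15000 and 17200 to 18500 CPM with MitoGamide. On the water side the sums overlapped between genotypes, at 9270 to 15000 and 9900 to 17100 CPM on water and 9770 to 15800 and 10100 to 17500 CPM with MitoQ. Of these 9 markers, 3, 1, 4 and 0 were called lower on the ethanol vehicle, on water, with MitoGamide and with MitoQ by edgeR and as many by DESeq2 (1 at an unadjusted p under 0.05 with MitoQ), against 8.22%, 0.366%, 6.6% and 0.292% of all genes. None was called higher, but 3, 3, 3 and 4 of the 9 had values above 0, and the list medians were -0.16, -0.19, -0.03 and -0.10. The marker furthest below 0 was Slc7a13, named after its values were seen. This transporter of the late proximal tubule fell by 1.58 on the log2 scale on the ethanol vehicle, 2.0 on water and 1.61 with MitoGamide, and stood at -1.19 with MitoQ. The 6 macrophage and leukocyte markers summed to 31.1 to 51.8 CPM in Akita and 48.5 to 85.8 CPM in WT libraries, and 2, 1, 1 and 1 of the 4 tested were called lower on the ethanol vehicle, on water, with MitoGamide and with MitoQ, beside the shares of all genes given above. C1qa stood above 0 with MitoGamide (0.33), and the others of the 4 below 0 in each arm. The leukocyte gene Ptprc fell by 0.73 on the ethanol vehicle and 0.58 with MitoGamide and stood at -0.38 on water and -0.47 with MitoQ. The macrophage receptor gene Csf1r fell by 0.59 on the ethanol vehicle, 0.86 on water and 0.90 with MitoQ, and stood at -0.45 with MitoGamide. Of the tested members of the other marker lists (3 or 4 genes each), 5 of 33 were called higher and 1 lower on the ethanol vehicle and 10 of 33 higher and 0 lower with MitoGamide, beside 8.18% and 7.71% of all genes called higher. With MitoGamide these included 2 of 4 podocyte, 2 of 4 endothelial and 2 of 3 principal cell markers. On water 0 of 34 and with MitoQ 0 of 33 were called by edgeR (6 and 4 at an unadjusted p under 0.05, and 1 each by DESeq2). The part of cell makeup in the Pdxk difference was not tested.

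Pdxp was close to the limit of detection. Its 40 libraries held 0 to 13 counts, with a median of 5 and 224 counts in all, against 81526 for Pdxk. Per kilobase of exon the mean level was 0.174 CPM for Pdxp and 23 CPM for Pdxk. On the ethanol vehicle, Akita libraries had 12, 5, 8, 10 and 4 counts and WT libraries 5, 5, 6, 3 and 12. With MitoGamide they had 5, 10, 3, 9 and 0 against 0, 3, 2, 5 and 6, on water 6, 7, 7, 8 and 0 against 13, 8, 13, 3 and 2, and with MitoQ 3, 3, 6, 6 and 6 against 5, 2, 2, 2 and 9. Every pair of groups overlapped. A count of 0 in a single library (Akita water vehicle replicate 5, Akita MitoGamide replicate 5 and WT MitoGamide replicate 1) allows a level of up to 0.329, 0.211 and 0.211 CPM of that library's total, if the floor is set at 3 counts. These floors cover counting error only.

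**Figure D4:**
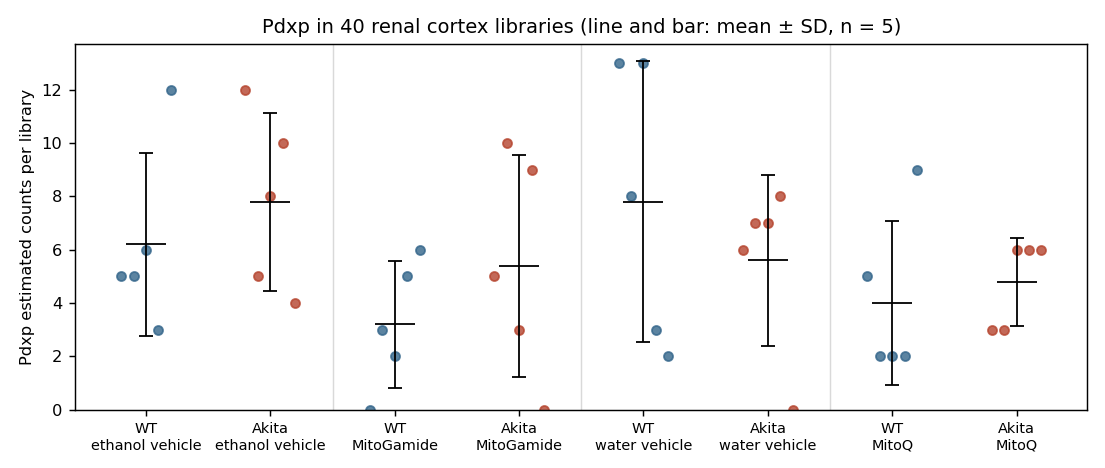
Estimated counts of Pdxp per library (vertical axis, unscaled) in 8 groups of 5, with the group mean and SD as a line and bar. All libraries hold 0 to 13 counts and all groups overlap.

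Pdxp had a mean under 10 counts in every contrast and was fitted without that filter. The Akita against WT log2 fold change was 0.39 on the ethanol vehicle (a description), -0.44 on water (95% confidence interval -1.75 to 0.87), 0.74 with MitoGamide (95% confidence interval -0.74 to 2.21) and -0.13 with MitoQ (95% confidence interval -1.17 to 0.91). The edgeR adjusted p of the last 3 were 0.962, 0.564 and 0.977. The drug and vehicle comparisons gave log2 fold changes of -0.72 to 0.21, and a difference in Pdxp was not detectable at this depth.

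The balance of kinase to phosphatase RNA was taken as the log2 ratio of Pdxk to Pdxp counts within a library, with 0.5 added to both since Pdxp was 0 in 3 libraries. The Akita minus WT difference of this ratio was 0.86 on the ethanol vehicle (a description), 1.61 on water, 0.60 with MitoGamide and 1.26 with MitoQ. With MitoQ the ratio was 8.92 ± 0.46 in Akita and 7.66 ± 0.93 in WT libraries (SD, n = 5 each), with a two-sided exact permutation p of 0.0397 that became 0.357 after adjustment over 9 comparisons. No comparison passed after adjustment. Across libraries within a genotype, with group means removed, Pdxk and Pdxp had a Pearson r of -0.15 and a Spearman rho of -0.16 in 20 Akita libraries (permutation adjusted p 0.559 and 0.51) and an r of -0.30 and a rho of -0.28 in 20 WT libraries (adjusted p 0.506 and 0.51), and at these counts neither is a finding.

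Among the other genes of vitamin B6 metabolism, none was called in more than 1 arm. The list held 8 of them, and 5 had enough counts to test. On the ethanol vehicle 1 of these 5 was called, higher, and in the other 3 arms 0 of 5 were called by edgeR and 0 by DESeq2, with 1 of 5 at an unadjusted p under 0.05 in each. Over all genes 16.4% were called on the ethanol vehicle, 0.552% on water, 14.3% with MitoGamide and 0.557% with MitoQ, so 0 of 5 is near the background. Over these 5 genes the median was -0.03, -0.05, 0.07 and 0.05 on the ethanol vehicle, on water, with MitoGamide and with MitoQ, against a median between -0.01 and 0.01 over all genes tested.

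Plpbp, a PLP-binding protein that buffers the cofactor, had Akita against WT log2 fold changes of -0.03, -0.05, 0.08 and 0.05 in the order above. Phospho2, a phosphatase with activity toward PLP, had -0.21, -0.10, 0.02 and 0.04. For both genes all groups overlapped.

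Alpl, tissue-nonspecific alkaline phosphatase, removes the phosphate of PLP outside the cell so that pyridoxal can enter. It had 322, 337, 389, 315 and 282 CPM in Akita and 235, 261, 296, 265 and 248 CPM in WT libraries on the ethanol vehicle, which overlap. There it rose with a log2 fold change of 0.35 and a standard error of 0.09 (edgeR adjusted p = 0.0156), a call of Alpl that was lost with the receptor gene covariate (adjusted p = 0.0567) and in the fit of all 40 libraries (adjusted p = 0.48). In the other arms it stood at 0.66 on water, 0.42 with MitoGamide and 0.47 with MitoQ, with adjusted p of 0.56, 0.106 and 0.517. Aldehyde oxidase, which turns pyridoxal into the excreted 4-pyridoxic acid, is encoded in mice by Aox1, Aox2, Aox3 and Aox4. Aox1 had 0.616 to 3.89 CPM with log2 fold changes between -0.31 and 0.06, and none was called. Aox2, Aox3 and Aox4 had mean counts of 2.73, 5.35 and 0.75 per library and were not tested. Per kilobase of exon, Alpl (70.4 CPM) exceeded Pdxk (23 CPM), followed by Plpbp (9.3 CPM) and Phospho2 (3.18 CPM).

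**Figure D5:**
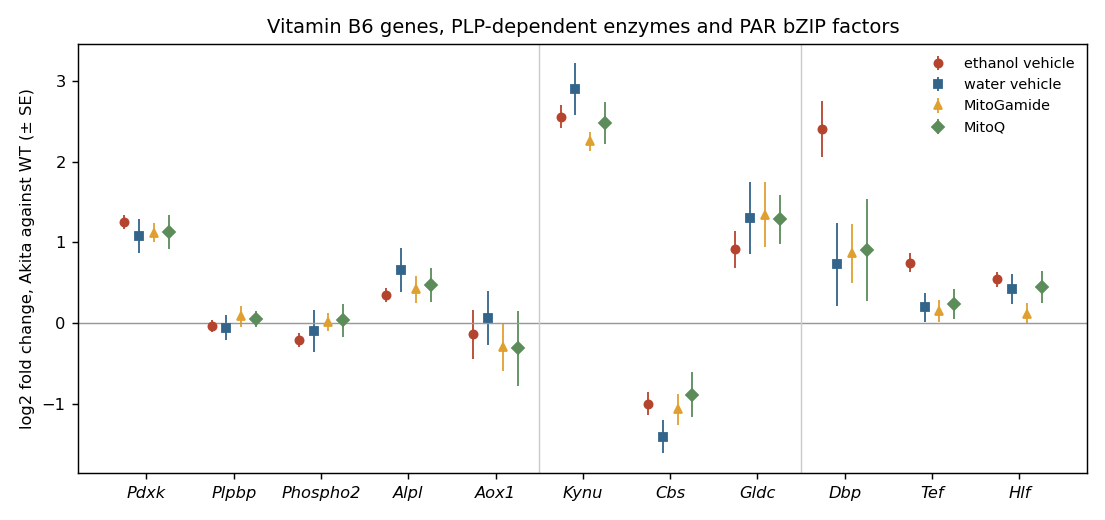
Akita against WT log2 fold change (vertical axis, edgeR, bars are the SE) in 4 arms for Pdxk and 4 other vitamin B6 genes (left), Kynu, Cbs and Gldc as PLP-dependent enzymes (middle) and the PAR bZIP factors (right). Pdxk lies between 1.08 and 1.25, Plpbp and Phospho2 lie near 0, and Dbp, Tef and Hlf are largest on the ethanol vehicle.

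Enzymes that use PLP changed in both directions. The list held 53 genes of these enzyme families, among them Azin2 and Sptlc1, whose own use of PLP is not established. On the ethanol vehicle 45 were tested and 13 were called higher and 5 lower. Got1, an aspartate aminotransferase called higher, had an edgeR adjusted p of 0.04996. These counts include Azin2, called higher there and with MitoGamide, and Sptlc1, called lower on the ethanol vehicle. With MitoGamide 12 were called higher and 3 lower of 45 tested (5 higher without Akita MitoGamide replicate 2, 6 without WT MitoGamide replicate 2 or 4, 7 without replicate 1 or 3 of that group and 1 with the receptor gene covariate), on water 1 higher and 1 lower of 46, and with MitoQ 1 higher and 0 lower of 45. Over the tested enzymes the median log2 fold change was 0.09, 0.24, 0.04 and 0.03 in that order, beside medians over all genes of -0.00, 0.01, 0.00 and -0.00. Among all genes 16.4%, 14.3%, 0.552% and 0.557% were called in these arms.

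Kynu, kynureninase of the tryptophan pathway, was called higher in all 4 arms. On water it had 44.7, 31.7, 18, 56.6 and 39.6 CPM in Akita and 4.66, 7.4, 3.39, 4.03 and 6.1 CPM in WT libraries. The lowest Akita value was thus above every WT value, and the same held in the other 3 arms. Its log2 fold changes were 2.56, 2.90, 2.25 and 2.48 on the ethanol vehicle, on water, with MitoGamide and with MitoQ (edgeR adjusted p 2.42e-07, 0.003, 3.82e-06 and 0.00111). Cbs, cystathionine beta-synthase of the transsulfuration pathway, moved the other way. It had 56, 57, 72.4, 40.3 and 48.5 CPM in Akita and 198, 103, 129, 150 and 144 CPM in WT libraries on water, without overlap. It fell by 0.99 on the ethanol vehicle, 1.41 on water and 1.06 with MitoGamide (edgeR adjusted p 0.000398, 0.0139 and 0.00514) and stood at -0.89 with MitoQ (adjusted p = 0.26). The Cbs call on water was lost without the libraries over 40% ribosomal RNA (adjusted p = 0.182) and with the replicate number as a block (adjusted p = 0.0574).

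Cofilin and its kinases and phosphatases, the other known setting of Pdxp, held 1 called gene in each of 2 arms, which is near the background. Of 10 listed genes, all tested, 1 was called higher on the ethanol vehicle and 1 with MitoGamide (Limk2, a cofilin kinase, in both), beside 8.18% and 7.71% of all genes, and 0 on water and with MitoQ (0 also at an unadjusted p under 0.05 in edgeR, and 0 by DESeq2), and none was called lower by either tool. The call on the ethanol vehicle was lost in 6 of 10 fits that left out 1 library, those without Akita replicate 2 or 4 or WT replicate 1, 2, 4 or 5. The list median was 0.07, 0.12, 0.00 and 0.04 on the ethanol vehicle, with MitoGamide, on water and with MitoQ.

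The PAR bZIP factors were called on the ethanol vehicle and in no other arm. Dbp had 69.9, 58.3, 33.8, 40.4 and 61.9 CPM in Akita and 1.79, 11.5, 16, 12.1 and 8.5 CPM in WT libraries on the ethanol vehicle, without overlap, and rose with a log2 fold change of 2.40 (standard error 0.35, edgeR adjusted p = 0.000528). Tef rose by 0.75 and Hlf by 0.55 there (adjusted p 0.000811 and 0.00144), the Hlf call being lost in the fit of all 40 libraries (adjusted p = 0.0527). On water, with MitoGamide and with MitoQ, Dbp stood at 0.73, 0.86 and 0.91, Tef at 0.20, 0.15 and 0.24, and Hlf at 0.42, 0.12 and 0.45, none of them called, with adjusted p of 0.128 to 1. The genotype difference changed between the ethanol vehicle and MitoGamide by -1.54 for Dbp, -0.61 for Tef and -0.44 for Hlf on the log2 scale, with unadjusted p of 0.0125, 0.00372 and 0.0183 and edgeR adjusted p of 0.585, 0.555 and 0.585. Dbp varied widely within groups, from 3.8 to 45.1 CPM in Akita MitoQ libraries and from 9.67 to 53 CPM in WT water vehicle libraries. Of the 14 tested genes of the list of PAR bZIP and clock output genes, 7 were called higher and 3 lower on the ethanol vehicle, 1 higher with MitoGamide, and 0 on water and with MitoQ by edgeR (5 and 3 at an unadjusted p under 0.05, and 0 and 1 by DESeq2), where 16.4%, 14.3%, 0.552% and 0.557% of all genes were called on the ethanol vehicle, with MitoGamide, on water and with MitoQ. The hour at which the mice were killed is not given in the sources used here.

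No tested neighbor of Pdxk on chromosome 10 was as far above 0 as Pdxk, and Gm47922 was called in the other direction. Cstb, a cysteine protease inhibitor and the nearest tested gene below it, 9122 bases away, had log2 fold changes of 0.31, 0.41, 0.44 and 0.24 on the ethanol vehicle, on water, with MitoGamide and with MitoQ, and rose in the MitoGamide arm (edgeR adjusted p = 0.0136). Gm9978, the nearest tested gene above it at 19595 bases, had 0.21, 0.46, -0.27 and -0.02. Within 500000 bases, 18 other genes were tested (17 on water), and their log2 fold changes lay between -1.40 and 0.56 over the 4 arms. Of these, 1, 0, 2 and 0 were called higher and 1, 1, 2 and 0 lower on the ethanol vehicle, on water, with MitoGamide and with MitoQ, beside 8.18%, 0.186%, 7.71% and 0.265% of all genes higher and 8.22%, 0.366%, 6.6% and 0.292% lower. Gm47922, 326878 bases from the start of Pdxk, fell by 0.89 on the ethanol vehicle, 1.40 on water and 0.89 with MitoGamide, and stood at -1.09 with MitoQ. The transcript 4921516A02Rik, which overlaps the end of Pdxk on the opposite strand, held 0 to 5 counts, and Mir6908, which lies within Pdxk, was listed at 0 in all libraries. Beside Pdxp, Sh3bp1 and Lgals1 had log2 fold changes between 0.08 and 0.52, of which that of Lgals1 with MitoGamide was called (0.46, edgeR adjusted p = 0.0116). The Cstb and Lgals1 calls were lost with the receptor gene covariate (adjusted p 0.207 and 0.399) and in the fit of all 40 libraries (adjusted p 0.152 and 0.163).

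The genes whose 8 group means lay closest to those of Pdxk, after centering each gene on its own mean of log2 CPM, were Mgmt, Gldc, Nefl, Abcc4 and Spp1. Their root mean square differences from Pdxk were 0.101, 0.118, 0.124, 0.127 and 0.129 on the log2 scale, where Pdxk itself had a spread of 0.583 over the 8 means and 17769 genes were compared. These genes were chosen for a pattern that holds the genotype difference, so their values are a description over 8 points that share their libraries, with no test. Mgmt encodes a DNA repair methyltransferase, Gldc the PLP-dependent decarboxylase of the glycine cleavage system, Nefl a neurofilament, Abcc4 an efflux transporter and Spp1 osteopontin. Mgmt had Akita against WT log2 fold changes of 1.5, 1.19, 1.42 and 0.99 on the ethanol vehicle, on water, with MitoGamide and with MitoQ. Abcc4 had 1.08, 1.35, 0.97 and 1.20 in the same order. Spp1 had 1.14, 1.35, 1.45 and 1.04, and Gldc had 0.91, 1.30, 1.34 and 1.28. Nefl, at a mean of 0.707 CPM, had 1.78, 1.83 and 1.77 on the ethanol vehicle, with MitoGamide and with MitoQ, and was under the filter on water. These values exceeded those of Pdxk in the same arms (1.25, 1.12 and 1.13). The log2 CPM of the likeness carried a prior count of 2, which shrinks differences at low counts, so the place of Nefl may rest on that setting.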

How the data were processed

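RNA was measured in 40 renal cortex libraries, 1 per mouse, in 8 groups of 5 that were taken from the sample labels. The authors depleted ribosomal RNA, made strand-specific libraries, trimmed low-quality bases with Skewer, quantified reads on GENCODE mouse transcripts (GRCm38) with kallisto 0.46.1 and summed transcripts to genes in R 4.0.2, so the deposited values are estimated counts per gene, given as whole numbers and not scaled. Total counts ran from 9106654 to 24321424 per library. Of 55401 gene identifiers, 99.5% were found in GENCODE M21, from which names and positions came.

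Here the counts were tested with edgeR 4.0.16 in R 4.3.3 (TMM, quasi-likelihood F-test, Benjamini-Hochberg adjustment over all genes, called under 0.05), on the libraries of each contrast alone and on genes averaging 10 counts or more. Pdxp never passed that filter and was fitted without it. Differences between contrasts were interaction terms. The log2 ratio was compared with exact permutation tests, and the relation of both genes was tested with 100000 permutations within groups, on log2(CPM + 0.05) for Pdxp. Both the planned ratio without a pseudocount and the relation would be undefined where Pdxp is 0, which is why 0.5 was added to the counts of the ratio. No 2 libraries of a group were alike within sampling noise (chi-square per gene of at least 8.88).

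The members, gene lists and marker lists were chosen with earlier results of these data known. Named genes were set by rule, namely both members, the other genes of the vitamin B6 list (1 counted there is not reported here), members of other lists called in at least 2 of the 3 genotype contrasts outside the ethanol vehicle, Dbp, Tef and Hlf, genes that overlap or neighbor the members, and the 5 genes most like Pdxk over the 8 group means. Other genes with values (markers, Got1, Limk2 and Gm47922) were chosen after they were seen. Alternatives were RLE normalization, DESeq2 1.42.0, dropping the filter, asking for 10 counts in each library, 1 fit over all 40 libraries, the replicate number as a block and each library left out. After the data were examined, a fit without libraries over 40% ribosomal and a fit with the summed receptor genes as a covariate were added. The scripts were tested on simulated counts.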

Additional observations from a re-analysis of the deposited data

Results flagged for a closer look

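In 192 groups of 5 values (21 named genes with enough counts, or Pdxp, and 3 library measures in 8 groups), 16 had a highest or lowest sample whose gap to the nearest other exceeded 0.71 of the range (Dixon's criterion), while chance gives about 1 in 20. Pdxk itself had 1 such library, WT ethanol vehicle replicate 3 at 98.6 CPM against 75.1 to 81.7 CPM in the other 4, and Pdxp had none.

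Akita MitoGamide replicate 5 stood apart for 4 genes. It had 176 CPM of Plpbp against 100 to 116 in the rest of its group, 518 CPM of Alpl against 251 to 317, 634 CPM of Gldc against 104 to 201 and 183 CPM of Abcc4 against 65.5 to 99.4. It was also the highest of its group for Pdxk, at 218 CPM. Akita MitoQ replicate 4 had 2.82 CPM of Aox1 against 0.616 to 1.22, 32.1 CPM of Cbs against 76.4 to 88.1 and 0.23 CPM of Nefl against 1.07 to 1.38, and WT MitoQ replicate 3, with a ribosomal share of 63.2% against 20.8% to 25.9%, had 3.89 CPM of Aox1 against 0.85 to 1.56 and 70.9 CPM of Cbs against 133 to 157.

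WT water vehicle replicate 2 had 53 CPM of Dbp against 9.67 to 17.8 in the other 4, and WT MitoGamide replicate 5 had 63.2 CPM of Hlf against 89.8 to 97.3. Akita ethanol vehicle replicate 3 had 375 CPM of Gldc against 136 to 203, WT ethanol vehicle replicate 1 had 39.7 CPM of Abcc4 against 55 to 58.7, and Akita ethanol vehicle replicate 4 had a receptor gene sum of 1060 CPM against 752 to 825.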

How the results depend on the processing

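The Pdxk genotype difference was positive in every fit of every arm, and what the processing changed was its side of the threshold. On water the call was lost with RLE normalization (log2 fold change 1.07, adjusted p = 0.0622), without a filter (1.07, adjusted p = 0.103), with the replicate number as a block (1.08, adjusted p = 0.102) and without the libraries over 40% ribosomal RNA (1.16, adjusted p = 0.195), and leaving out 1 library gave 0.94 to 1.18 and kept the call only without WT water vehicle replicate 2. With MitoQ the block lost the call (1.11, adjusted p = 0.0908), and leaving out 1 library gave 0.99 to 1.24, the call being lost without Akita MitoQ replicate 1, 4 or 5 or WT MitoQ replicate 1, 4 or 5. With MitoGamide the receptor gene covariate lost the call (1.11, adjusted p = 0.0600) and leaving out 1 library did not. The cause was not tested.

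The small drug effects on Pdxk changed sign when 1 library was left out, except that of MitoGamide in Akita mice (-0.18 to -0.043). The other ranges were -0.043 to 0.10 for MitoGamide in WT mice, -0.20 to 0.075 for MitoQ in Akita mice and -0.23 to 0.0095 for MitoQ in WT mice. The differences of the genotype effect ranged from -0.14 to 0.15 between MitoQ and MitoGamide and from -0.085 to 0.19 between MitoQ and water, and were -0.062 and -0.093 without the libraries over 40% ribosomal RNA. For the vehicles in Akita mice Pdxk ranged from 0.27 to 0.47 and was called once, without Akita water vehicle replicate 4 (adjusted p = 0.0307). Pdxp had -0.59 in the MitoGamide genotype contrast with the receptor covariate, and ranges of -0.32 to 0.14 (MitoQ genotype contrast), 0.24 to 0.73 (ethanol vehicle genotype contrast), -0.54 to 0.037 (MitoGamide in Akita mice) and -0.021 to 0.45 (vehicles in Akita mice). The ratio of Pdxk to Pdxp ranged from -0.14 to 1.23 in the MitoGamide genotype contrast, -0.18 to 0.88 for MitoGamide in Akita mice, -0.38 to 0.67 for MitoQ in Akita mice and -0.44 to 0.61 for the vehicles in Akita mice.

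The number of genes called moved more. In the genotype contrasts it was 844 in the fit of all 40 libraries on the ethanol vehicle (2910 in the main analysis). On water (101) it was 354 with DESeq2, 547 with all 40 libraries, 382 with the covariate, 12 without the ribosomal libraries and 32 (without Akita water vehicle replicate 4) to 94 leaving out 1. With MitoGamide (2386) it was 91 with the covariate and 1248 (without WT MitoGamide replicate 2) to 2822. With MitoQ (101) it was 415 with DESeq2, 308 with all 40 libraries, 253 with the covariate, 270 without the ribosomal library, WT MitoQ replicate 3, and 35 (without Akita MitoQ replicate 5) to 270. For MitoGamide in Akita mice (214) it was 1069 with DESeq2, 32 with all 40 libraries, 1 with the covariate and 0 (without Akita ethanol vehicle replicate 1 or 2) to 802 (without Akita MitoGamide replicate 5), and in WT mice (0) 74 with DESeq2 and 0 to 4. For MitoQ (0) it was 2 without the ribosomal libraries in Akita mice, and 2 with DESeq2 and 18 with all 40 libraries in WT mice. For the vehicles in Akita mice (2283) it was 4264 with DESeq2, 1352 without a filter, 1 with the covariate, 1 without the ribosomal libraries and 1 (without 5 of the libraries in turn) to 6496 (without Akita water vehicle replicate 1), and in WT mice (0) 725 with DESeq2, 1567 with all 40 libraries and 0 to 5216 (without WT water vehicle replicate 5).

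The labels do not say whether replicate numbers pair the samples, and the main fits took the mice as unpaired. In no contrast did all pairs of same-numbered libraries correlate above 0.1 (lowest -0.451, highest 0.655). However, 3 of 5 pairs did on water between genotypes and between MitoQ and water in Akita mice, so a pairing is not excluded. Between MitoQ and water 3 of 10 libraries correlated best with their own number in each genotype, while Pdxk itself kept the order of the numbers, and with the block its MitoQ values were -0.08 (95% confidence interval -0.32 to 0.17) in Akita and -0.11 (-0.38 to 0.16) in WT mice. With the replicate number as a block, the genes called were 32 on water and 48 with MitoQ in the genotype contrasts, 0 for MitoGamide in Akita mice, 1 for MitoQ in WT mice, and 0 in Akita and 2 in WT mice for the vehicles, and the Spearman rho of Pdxk and Pdxp in WT libraries was -0.53 (unadjusted permutation p = 0.0215). The block changed no other call of Pdxk or Pdxp. Of 94 values of other named genes in the genotype contrasts, 85 kept their side of the threshold, 9 lost it and none changed direction, leave-one-out fits apart. Those lost on water were of Cbs, without the ribosomal libraries and under the block. Depth limited Pdxp, at 0 to 13 counts per library, and left Aox2, Aox3, Aox4, the genes that overlap the members and, on water, Nefl untested.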
